A study of Homo sapiens with 8 samples.

Results

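Accessible chromatin was mapped by ATAC-seq, which uses the Tn5 transposase to cut and tag open DNA, in the human osteosarcoma line U2OS. Wild-type (WT) cells and cells with a CRISPR/Cas9 disruption of ASH1L (ASH1L-/-), for which single colonies had been isolated, were either unchallenged (no UV) or collected 3 h post UV, at a UV-C dose of 20 J/m2. Each of these 4 groups had 2 libraries, labelled as biological replicates. The sites described here are those that entered the peak lists of both UV-irradiated ASH1L-/- libraries and of none of the other 6 libraries. To find them, the peak regions of all 8 lists were merged into 547779 union sites, touching regions joined, and a library held a site if any of its regions overlapped it. Of these sites, 3409 met the rule and are called ASH1L-/- UV sites below. They were chosen by measured values, namely the presence or absence of a called region, so their presence in 2 lists and absence from 6 is no finding and carries no test.

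ASH1L is a histone methyltransferase that acts on histone H3 lysine 36. UV-C light joins neighbouring pyrimidines in DNA into photoproducts, which nucleotide excision repair removes, and it also activates stress kinases that switch on transcription factors such as AP-1 (dimers of JUN and FOS family proteins), CREB and ATF proteins, and NF-kB. Regions that newly open after such a stimulus are commonly enhancers bound by these factors, while promoters tend to be open throughout.

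The strongest ASH1L-/- UV sites give a picture of what the rule collects. The next lines print 200 bases of hg38 centred on the summit for the first 5 by signal that lie outside exons. Sites are named after the nearest protein-coding transcription start site (TSS). The start of every annotated transcript of a protein-coding gene counted as a TSS, so a TSS can lie inside its gene. Signal is the fold enrichment of the peak caller macs2, (pileup + 1) / (background + 1) at the summit, and sites were ordered by the lower one of their 2 percentiles within the ASH1L-/- UV lists. Capitals mark exact matches, on either strand, to AP-1 (TGACTCA or TGAGTCA), the cAMP response element CRE (TGACGTCA), TEAD (GGAATG) or RUNX (TGTGGT) letters.
PDGFC chr4:156505438-156505637 (+ strand): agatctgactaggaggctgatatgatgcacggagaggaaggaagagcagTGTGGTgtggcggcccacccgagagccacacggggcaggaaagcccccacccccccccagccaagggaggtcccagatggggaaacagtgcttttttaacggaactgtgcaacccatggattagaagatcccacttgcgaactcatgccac
ANKFN1 chr17:56309899-56310098 (+ strand): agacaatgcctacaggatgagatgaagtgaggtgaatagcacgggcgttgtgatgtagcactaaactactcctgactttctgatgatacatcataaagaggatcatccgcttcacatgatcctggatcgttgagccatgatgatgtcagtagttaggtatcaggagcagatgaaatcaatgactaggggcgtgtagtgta
IFTAP chr11:37264782-37264981 (+ strand): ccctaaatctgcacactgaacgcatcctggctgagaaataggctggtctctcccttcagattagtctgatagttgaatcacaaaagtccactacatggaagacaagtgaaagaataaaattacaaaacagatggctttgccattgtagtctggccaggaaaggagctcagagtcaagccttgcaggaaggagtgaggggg
WDFY3 chr4:84920732-84920931 (+ strand): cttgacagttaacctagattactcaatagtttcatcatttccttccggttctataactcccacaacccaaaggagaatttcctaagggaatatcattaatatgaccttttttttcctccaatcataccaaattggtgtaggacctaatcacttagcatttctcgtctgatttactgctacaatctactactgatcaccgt
FNDC3A chr13:48853864-48854063 (+ strand): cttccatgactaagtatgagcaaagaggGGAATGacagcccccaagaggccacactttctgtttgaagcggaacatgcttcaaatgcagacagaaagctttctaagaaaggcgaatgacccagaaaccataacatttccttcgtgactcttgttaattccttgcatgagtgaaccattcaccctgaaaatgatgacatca
Among these 5 windows, TGTGGT near PDGFC and GGAATG near FNDC3A were the only matches to the 4 sets of letters.

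The first of them lay at chr4:156505213-156505895, outside genes and 268179 bp away from the nearest TSS of PDGFC, which encodes a platelet-derived growth factor. Its fold enrichment was 7.54 in ASH1L-/- UV replicate 1 and 6.29 in replicate 2, from pileups of 25 and 23 fragments over backgrounds of 2.45 and 2.81. In both lists this was near the upper quartile, at percentiles 76.8 and 74.9, and the summits lay 22 bp apart. The nearest region of any of the other 6 libraries was 28354 bp away.

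A site in an intron of ANKFN1 (chr17:56309775-56310318) had fold enrichments of 6.96 and 6.29. The site near IFTAP (chr11:37264737-37265183), 592963 bp from that TSS, had 7.25 and 5.77. The site in an intron of WDFY3 (chr4:84920572-84920991), an adaptor of selective autophagy, had 6.38 and 5.74. These 3 sites were of similar height in both replicates, and their summits coincided within 1 to 44 bp. An intronic site of EGF (chr4:109988970-109989410), the epidermal growth factor gene, had fold enrichments of 5.99 and 5.24, but a region of the unchallenged ASH1L-/- replicate 1 lay 100 bp away. The 12 strongest sites together ranged from 5.80 to 7.54 in replicate 1 and from 5.24 to 8.53 in replicate 2, and their gaps to the nearest region of the other 6 libraries from 100 to 28354 bp.

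Promoters, the sequence within 1 kb of a protein-coding TSS, held 239 ASH1L-/- UV sites. The highest of these by signal, at chr10:72204190-72204823, covered an exonic TSS of ASCC1, which encodes a subunit of the activating signal cointegrator complex. Its pileups of 40 and 50 fragments over backgrounds of 5.14 and 4.98 gave fold enrichments of 6.67 and 8.53. The promoter of PRDM1 (chr6:106098581-106099042), which encodes the transcriptional repressor BLIMP-1, followed with fold enrichments of 6.67 and 4.98. The promoter of HTN1 (chr4:70050226-70050452), a salivary histatin gene, had 5.51 and 4.98, and that of DIO2 (chr14:80316314-80316952), the deiodinase that activates thyroid hormone, had 5.49 and 4.98. DIO2 also had a region of unchallenged ASH1L-/- replicate 1 at 143 bp. The promoters of ZNF80 (chr3:114237416-114237837), with 5.09 and 4.20, and of IL13RA2 (chrX:115017402-115017916), a decoy receptor of interleukin 13, with 4.64 and 5.51, were the last of the 6 highest.

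Before the sites are described further, some properties of the libraries have to be given. The lists held 158198 to 220783 regions. They carry no read counts, but the mean pileup over the genome, recovered from fold enrichment and p-value, ranged from 1.39 to 5.87. Unchallenged ASH1L-/- replicate 1 stood apart with the highest value, 5.87, against 1.39 in replicate 2 of the same group. WT UV replicate 2 stood apart by signal, with a median fold enrichment of 5.06 against 2.57 to 3.99 in the other 7 lists. A region near a TSS of ASH1L was present in all 8 lists, which does not check the disruption, and no ASH1L-/- UV site lay within 100 kb of the gene. Promoter regions of the osteoblast markers RUNX2, COL1A1, SPARC and ALPL were present in all 8 lists, that of COL1A2 in 7 and that of TWIST1 in 2. Of the blood and liver markers, APOA1 had one in 5 lists, PTPRC, SPI1 and ALB in 1 each and CD3E in 0.

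The number of ASH1L-/- UV sites was not exceptional among pairs of libraries. Sites held by exactly 2 libraries numbered 64641, and the ASH1L-/- UV pair accounted for 5.27% of them. Among the 28 possible pairs its count had rank 6. The highest count, 5007 sites, belonged to unchallenged ASH1L-/- replicate 1 with ASH1L-/- UV replicate 2, a pair with no shared treatment, and the 2 next, 4646 and 4330, also included that deep unchallenged library. Of the other same-group pairs, the unchallenged ASH1L-/- pair held 3632 sites alone, the WT UV pair 2903 and the unchallenged WT pair 2656. As a share of all sites that both libraries held, 3.04% in the ASH1L-/- UV pair, the rank was 8. No p is given for these counts, because pairs share libraries. Leaving out WT UV replicate 2 raised the number of ASH1L-/- UV sites to 5909, and leaving out the deep unchallenged ASH1L-/- replicate 1 raised it to 4837. Without any one of the other 4 comparison libraries it was 3707 to 3973.

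**Figure D1:**
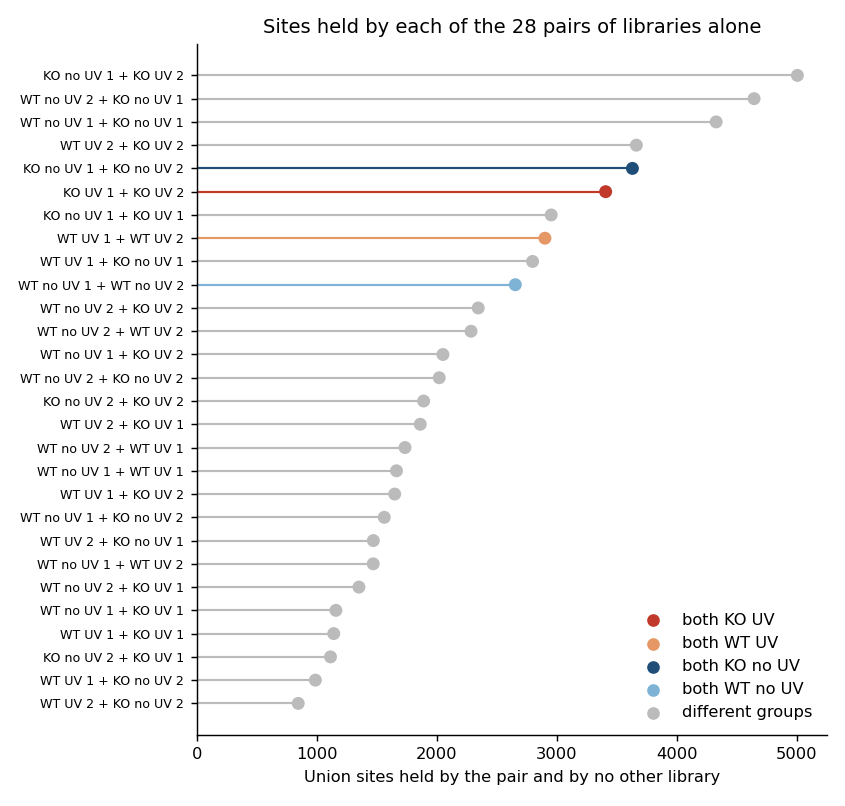
Number of union sites (horizontal axis) held by each of the 28 pairs of libraries (vertical axis) and by no other library, ordered by count, with the 4 same-group pairs coloured. The ASH1L-/- UV pair, with 3409 sites, has rank 6, between the unchallenged ASH1L-/- pair with 3632 sites and a mixed pair with 2955.

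Most ASH1L-/- UV sites were weak. Their median fold enrichment was 3.03 in replicate 1 and 2.88 in replicate 2, at the percentiles 28.5 and 32.6 of those lists. The median pileup at the summit was 11 fragments in replicate 1, over a genome mean of 2.45, and 12 fragments in replicate 2, over 2.81. Of the 3409 sites, 252 lay above the median of both lists and 0 in the upper quartile of both. A q-value below 0.05 was reached in both lists by 2288 sites (67.1%). Their median width was 340 bp. At the threshold of the rule, where 1 further library also held the site, 5676 sites were found, of which 2500 had that further region in WT UV replicate 2 and 1428 in unchallenged ASH1L-/- replicate 1. The lower percentile of fold enrichment of those 2500 sites had a median of 32.6, against 21.5 for the ASH1L-/- UV sites and 21.2 to 27 for the sites shared with any of the other 5 libraries.

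**Figure D2:**
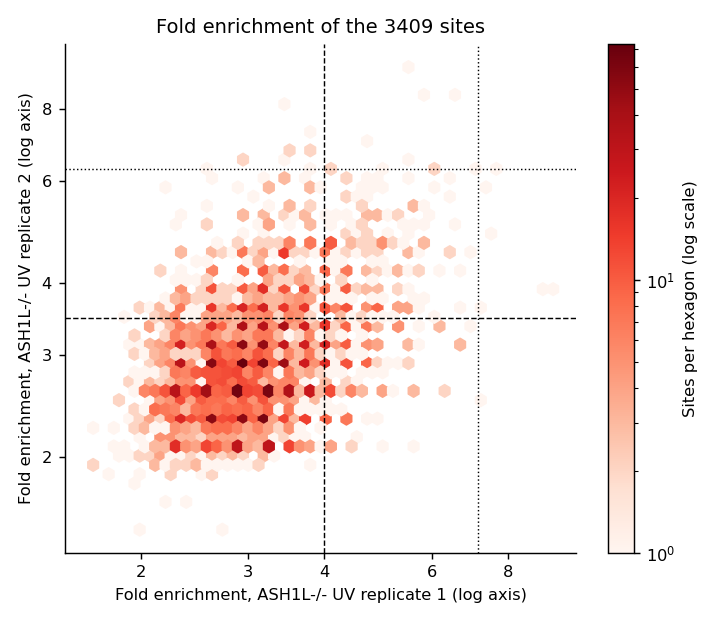
Fold enrichment of the 3409 ASH1L-/- UV sites in ASH1L-/- UV replicate 1 (horizontal, log axis) and replicate 2 (vertical, log axis), shaded by the number of sites per hexagon. Dashed lines are the medians of all regions of each list (3.99 and 3.47) and dotted lines the upper quartiles (7.16 and 6.29), and the sites crowd below both medians.

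The rule asked only for presence, so the agreement of the 2 replicates in position and height is a separate measure. The summits of replicates 1 and 2 lay a median of 54 bp apart, and within 100 bp at 66.6% of the sites. The median distance was 44 bp in the WT UV pair, 76 bp in the unchallenged ASH1L-/- pair and 78 bp in the unchallenged WT pair, and the median share within 100 bp over the other 27 pairs was 60.9%. By that share, 4 pairs were above the ASH1L-/- UV pair, and all 4 included WT UV replicate 2. Across sites, which are not independent replicates, Spearman's rho of the 2 fold enrichments was 0.36, with 0.43 in the WT UV pair, 0.17 in the unchallenged ASH1L-/- pair and 0.07 in the unchallenged WT pair. In the 2 same-group UV pairs the regions coincided more closely than in the 2 same-group pairs without UV.

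Whether depth accounts for the absence of a site from the other 6 lists was not tested. A region of another library within 500 bp was present at 8.51% of the sites for WT UV replicate 1 and at 14.8% for unchallenged ASH1L-/- replicate 1, and 2320 of the 3409 sites had none from any of the 6.

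By position, ASH1L-/- UV sites leaned towards intergenic sequence. Promoters held 7.01% of them (95% exact binomial interval 6.18 to 7.92), gene bodies 40.6% and intergenic sequence 52.4%. Over all union sites the shares were 8.37%, 43.8% and 47.8%. The intergenic share was the highest among the 28 pairs, whose other 27 ranged from 44.4% to 51.7%, and the gene-body share the lowest, although the next pair differed by under 0.1 percentage points. The interval of the intergenic share, 50.67 to 54.05, held that 51.7% and the 51.6% of the unchallenged ASH1L-/- pair. The median distance to a protein-coding TSS was 31288 bp, against 22123 bp in the WT UV pair and 33950 bp in the unchallenged ASH1L-/- pair.

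Sequence letters of stress-responsive factors differed between the classes. Windows of 200 bp around the summits were searched on both strands, and a match is a description of letters, not of binding. AP-1 letters occurred in 364 ASH1L-/- UV sites, 10.7% (exact binomial interval 9.66 to 11.8, counting error only). The WT UV pair held them in 16.1% (14.7 to 17.4) of its sites, the unchallenged ASH1L-/- pair in 3.41% and the unchallenged WT pair in 3.35%. The share over all union sites was 7.46%. It was 18.0% for the sites held by all 8 libraries and 23.8% for the sites held by all 4 UV libraries and by no unchallenged one. Both same-group UV pairs exceeded the 2 same-group pairs without UV beyond counting error. The 4 pairs above the ASH1L-/- UV pair all included WT UV replicate 2, one of them with unchallenged WT replicate 2 (11.3%), so the order of the 2 UV pairs cannot be told apart from that library.

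Letters of the NF-kB site, searched in 2 forms, separated the 2 UV pairs more widely. They occurred in 5 ASH1L-/- UV sites, 0.147% (0.0476 to 0.342), and in 48 sites of the WT UV pair, 1.65% (1.22 to 2.19). The ASH1L-/- UV share did not differ from the 0.164% of all union sites beyond counting error. The 3757 sites held by all 4 UV libraries and by no unchallenged library had these letters at 1.14% (0.83 to 1.54). The 5 sites were nearest to ITGA8, RALGAPA2, RGS16, FBXO32 and EFHC2, none of them a member of the NF-kB list described below.

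CRE letters (TGACGTCA), which CREB and ATF proteins recognise, were commoner in the ASH1L-/- UV pair, but the intervals of the 2 UV pairs overlapped. They occurred in 17 ASH1L-/- UV sites, 0.499% (0.291 to 0.797), the highest share of the 28 pairs, of which the next had 0.272%. The WT UV pair had 3 such sites, 0.103% (0.0213 to 0.302), the unchallenged ASH1L-/- pair 3, 0.0826%, and the unchallenged WT pair 2, 0.0753%. Over all union sites the share was 0.158%, and over the 60324 sites held by all 8 libraries 0.504%. The 4 strongest such sites that had 26 bases on either side and lay outside exons are printed with 60 bases each, the CRE letters in capitals.
SPATA33 chr16:89664452-89664511 (+ strand): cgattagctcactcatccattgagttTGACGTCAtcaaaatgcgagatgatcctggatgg
INSR chr19:7141879-7141938 (+ strand): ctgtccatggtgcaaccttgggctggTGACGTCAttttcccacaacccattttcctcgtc
HPF1 chr4:169869637-169869696 (+ strand): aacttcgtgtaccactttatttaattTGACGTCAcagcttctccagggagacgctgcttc
FRG1 chr4:189279406-189279465 (+ strand): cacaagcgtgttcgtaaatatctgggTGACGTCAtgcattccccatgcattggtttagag
Their flanks had little in common: over the 11 sites with 15 bases on both sides, the commonest base at a flanking position was shared by 40.9% of them on average. The site named SPATA33 lay in an intron of that gene and had fold enrichments of 5.54 and 4.47. The site named INSR lay in an intron of the insulin receptor gene, 1105 bp from the nearest annotated transcript start, and had 4.06 and 4.72. Others lay in introns of FBN1, the gene of the matrix protein fibrillin-1, with fold enrichments of 3.19 and 4.19, and of the integrin gene ITGA7, with 2.30 and 3.27, and 5244 bp from RICTOR, a subunit of the mTORC2 kinase complex, with 3.41 and 4.0.

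The other searched letters varied less. TEAD letters occurred in 13.7% of ASH1L-/- UV sites and RUNX letters in 15.1%. The ETS core CCGGAA occurred in 2.58% of them, and the NFY letters CCAAT were found in 25.4%. AGATAA, which is recognised by GATA proteins, occurred in 10.6%. The forkhead letters TGTTTAC were present in 3.70% of the sites. The letters GGGCGG of SP and KLF proteins occurred in 6.42%, while the E-box CACGTG was seen in 3.34%. C/EBP sites, searched in 3 forms, occurred in 1.85%, p53 sites in 6.48% and the CTCF core in 3 sites, 0.0880%. The NFY and GATA letters were at the top of the 28 pairs, but by small margins, with 25.3% and 10.5% in the next pair.

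All words of 8 letters were then compared between ASH1L-/- UV sites and the other sites held by 2 libraries, without a test, and ranked by excess over the latter. The leading word was CAATCAGC, in 90 ASH1L-/- UV sites, 2.64% (2.13 to 3.24), against 0.995% of the other sites held by 2 libraries. Next came GCGTAGGA in 23 sites, 0.675% against 0.147%, and ACACCCAC in 91 sites, 2.67% against 1.28%. Words that share 5 letters in a row with an earlier chosen one, on either strand, were passed over. In the WT UV pair the 3 shares were 0.723%, 0.0689% and 0.861%. CAATCAGC and GCGTAGGA lay in the same 60 bases at the sites nearest to OR9Q1, ZNF337 and CDH18. The number of sites with both words was not counted. Of the 90 sites with CAATCAGC, 66 (73.3%) shared a run of 30 bases with the window of another union site whose summit lay over 200 bp away, and of the 23 with GCGTAGGA 16 (69.6%) did. For all ASH1L-/- UV sites this share was 25.1%, within the 15.8% to 27.4% of the other 27 pairs, and for sites with AP-1 letters it was 20.9%. Whether short reads are placed reliably at such sites was not measured. According to the study's methods, reads of low mapping quality were excluded. Repeat families were not analysed here. Of the sites with CAATCAGC, 71.1% were intergenic.

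**Figure D3:**
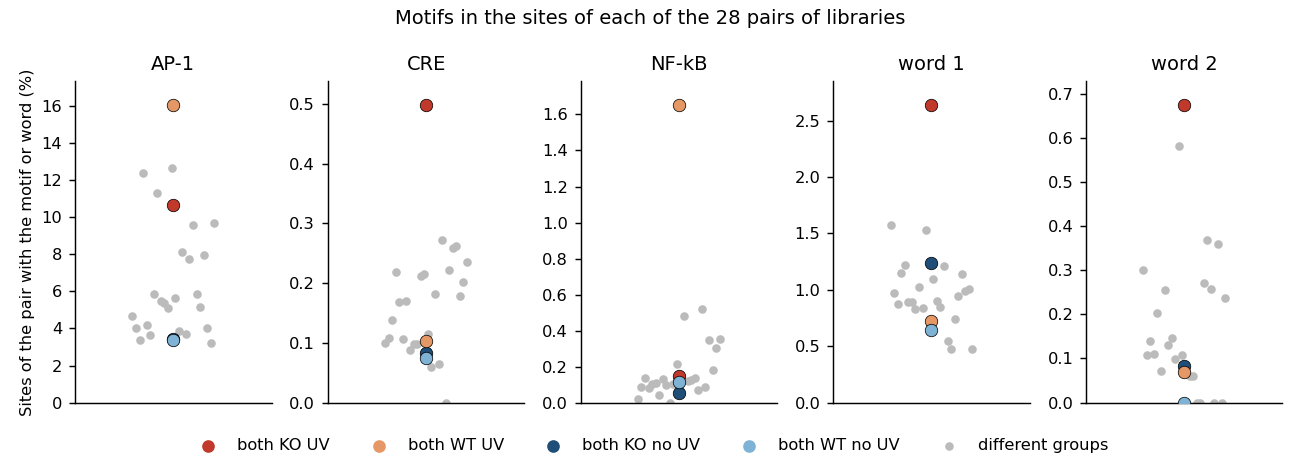
Share of sites (vertical axis, percent) with AP-1, CRE or NF-kB letters, word 1 (CAATCAGC) or word 2 (GCGTAGGA) for each of the 28 pairs of libraries, the 4 same-group pairs in colour and the others in grey. The ASH1L-/- UV pair is highest for CRE (0.499%), word 1 (2.64%) and word 2 (0.675%), and the WT UV pair for AP-1 (16.1%) and NF-kB (1.65%). Both words were chosen for their excess in the ASH1L-/- UV sites, which fixed their rank here. At some of these sites both lay in the same window.

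Sites just outside the rule, held by both ASH1L-/- UV libraries and 1 further library, did not enter the ranking of the words. They come from the same ASH1L-/- UV lists as the sites that gave the words, so they are no independent check. Where both ASH1L-/- UV libraries and 1 of the 2 unchallenged ASH1L-/- libraries held a site (1992 sites), CAATCAGC occurred in 2.61% (1.96 to 3.41) and CRE letters in 0.502% (0.241 to 0.921), close to the ASH1L-/- UV sites. Where the third library was 1 of the 4 WT libraries (3684 sites), CAATCAGC occurred in 1.14% (0.823 to 1.54) and CRE letters in 0.163% (0.0598 to 0.354). AP-1 letters went the other way, with 7.53% (6.41 to 8.78) when an unchallenged ASH1L-/- library was the third and 14.7% (13.4 to 16) when a WT UV library was. The CRE shares rest on 10 and 6 sites and their intervals overlap. ACACCCAC differed little, with 2.36% (1.74 to 3.13) against 2.06% (1.63 to 2.58). The intervals of CAATCAGC and of AP-1 letters did not overlap. WT UV replicate 2, however, was the third library at 2500 of these sites, with CAATCAGC at 1.04%. CAATCAGC was at 1.84% with WT UV replicate 1 and at 0.671% and 1.26% with the unchallenged WT libraries. AP-1 letters were at 9.50% (7.42 to 11.9) with an unchallenged WT library as the third. That interval overlaps the one for an unchallenged ASH1L-/- library.

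Sites held by a single library are not used by the rule and give each library a value of its own. The words were, however, picked from sites of the ASH1L-/- UV libraries, which also enter this comparison. For the words it is thus not independent of that choice. CAATCAGC occurred in 0.637% and 0.583% of these sites in unchallenged WT libraries, in 0.653% and 0.591% in WT UV libraries, in 0.810% and 0.715% in unchallenged ASH1L-/- libraries and in 1.0% and 1.02% in ASH1L-/- UV libraries. All 4 ASH1L-/- libraries lay above all 4 WT libraries. The means were 0.887% ± 0.148 (SD, n = 4) in ASH1L-/- and 0.616% ± 0.0341 (SD, n = 4) in WT libraries, a difference of 0.271 percentage points. The two-sided exact permutation p was 0.0286, the smallest that 4 against 4 libraries can give, and after Benjamini-Hochberg adjustment over the 21 comparisons of this kind it was 0.15, which does not pass 0.05. Confined to parts of the genome whose local background overlapped between genotypes, the difference was 0.294 percentage points.

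At some ASH1L-/- UV sites GCGTAGGA lay in the same window as CAATCAGC, so the words are not wholly separate observations. GCGTAGGA was also higher in all 4 ASH1L-/- libraries, with 0.106% to 0.207% against 0.0689% to 0.0967% in WT libraries (exact permutation p = 0.0286, adjusted p = 0.15). The difference of 0.0527 percentage points fell to 0.0302 without ASH1L-/- UV replicate 2. ACACCCAC occurred in 1.01% to 1.21% of the single-library sites of ASH1L-/- and in 0.885% to 1.12% of those of WT libraries, which overlapped (exact permutation p = 0.143, adjusted p = 0.375). NF-kB letters occurred in 0.214% and 0.259% of the single-library sites of WT UV libraries and in 0.0711% to 0.109% of those of the other 6. They were lower in all 4 ASH1L-/- than in all 4 WT libraries (exact permutation p = 0.0286, adjusted p = 0.15). The difference of the UV effects between genotypes had an exact permutation p of 0.371. That permutation did not hold the UV and genotype differences fixed. With only the WT UV libraries high, it cannot decide whether the UV effects differ. AP-1 letters occurred in 3.16% to 3.94% of the single-library sites of the 4 unchallenged libraries, in 5.31% and 4.98% for ASH1L-/- UV and in 4.62% and 9.30% for WT UV libraries (UV against no UV, exact permutation p = 0.0286, adjusted p = 0.15). The mean UV difference for AP-1 was 2.60 percentage points, and 1.44 without WT UV replicate 2. CRE letters were at 0.113% and 0.122% in ASH1L-/- UV libraries and at 0.0672% to 0.0889% in the other 6. The difference of the UV effects had an exact permutation p of 0.0571 (adjusted p = 0.24), from a permutation with the same limit.

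**Figure D4:**
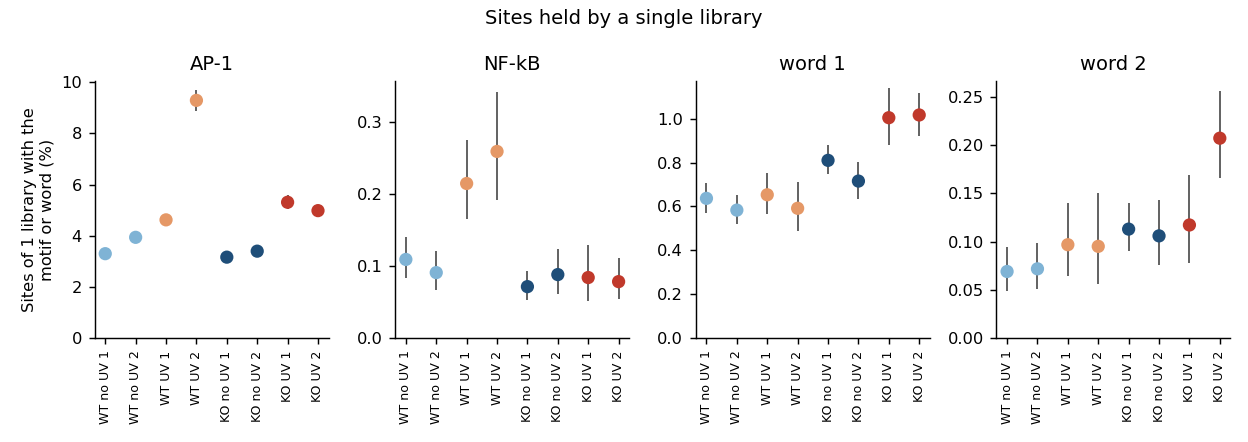
Share of the sites held by a single library (vertical axis, percent) that have AP-1 or NF-kB letters, word 1 (CAATCAGC) or word 2 (GCGTAGGA) in each of the 8 libraries, with 95% exact binomial intervals as bars. For word 1 the 4 ASH1L-/- libraries (0.715% to 1.02%) lie above the 4 WT libraries (0.583% to 0.653%), and for NF-kB only the WT UV libraries exceed 0.2%.

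In bins of 5 Mb, and only loosely by chromosome, the density of ASH1L-/- UV sites moved with a genotype difference not specific to UV. At the sites that all 8 libraries held, the local background of macs2, the read density of the surroundings, was compared after division by each library's median. On chromosome 4 it was 0.813 to 0.832 in the 4 ASH1L-/- libraries and 0.712 to 0.777 in the 4 WT libraries, on chromosome 15 it was 1.23 to 1.304 against 1.05 to 1.09, and on chromosome 16 it was 0.903 to 0.925 against 1.04 to 1.09. The genotypes did not overlap on 18 of 23 chromosomes, 9 with ASH1L-/- higher and 9 with WT higher. Among 562 bins of 5 Mb, 140 (24.9%) had a higher background in all 4 ASH1L-/- than in all 4 WT libraries and 105 (18.7%) the reverse. UV and unchallenged libraries, split the same way, did not overlap in 7.3% of the bins.

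ASH1L-/- UV sites followed this pattern. They numbered 7.30 per 1000 union sites in bins of higher ASH1L-/- background, 6.51 in bins where the genotypes overlapped and 3.80 in bins of higher WT background. The WT UV pair went from 3.37 over 5.26 to 8.15 in the same bins. The unchallenged ASH1L-/- pair paralleled the ASH1L-/- UV pair, with 9.14, 6.35 and 3.54. The part of this background in the choice of sites was not tested. Bins where the genotypes overlapped held 1775 of the 3409 sites (52.1%), close to the 49.8% of all union sites, and there the ASH1L-/- UV pair had rank 5 of 28. In these bins CAATCAGC occurred in 2.93%, CRE letters in 0.507% and AP-1 letters in 10.8% of the ASH1L-/- UV sites, within the intervals given above. CRE letters were at 0.250% (3 of 1201 sites) in bins of higher ASH1L-/- background and at 1.24% (5 of 403) in bins of higher WT background. The interval for all ASH1L-/- UV sites does not give the counting error of such small subsets. A difference between the bins was not tested.

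The bin with the most ASH1L-/- UV sites, 25, lay on chromosome 20 from 55 to 60 Mb, with a relative background of 1.27 to 1.36 in ASH1L-/- and 1.13 to 1.27 in WT libraries. The bin on chromosome 4 from 80 to 85 Mb held 21, including the one in WDFY3, and its background was 1.03 to 1.078 in ASH1L-/- and 0.708 to 0.797 in WT libraries. In the bin from 110 to 115 Mb of chromosome 4, with 20 sites, the values were 1.17 to 1.299 and 0.542 to 0.616. Of the 12 strongest sites, 5 lay in bins of higher ASH1L-/- background, 5 in bins of higher WT background and 2 in bins of overlap, while these 3 kinds of bin held 35.2%, 11.8% and 52.1% of all ASH1L-/- UV sites. Chromosomes X and 13 held the most ASH1L-/- UV sites per 1000 union sites, 11.98 and 11.01 against 6.22 over all chromosomes, and chromosome 16 the fewest, 3.58. On chromosome X the ASH1L-/- UV pair made up 10.8% and the WT UV pair 12.2% of the sites held by 2 libraries, against 2.19% and 2.45% for the pairs without UV, while the background of the genotypes overlapped there. On chromosome 13 the background also overlapped. There the same pairs made up 10.3% and 11.1%, against 6.23% and 4.11%. Of the chromosomes with higher ASH1L-/- background, 2, 11 and 22 lay below 6.22 sites per 1000, and 4, 5, 7, 15, 18 and 20 above it.

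**Figure D5:**
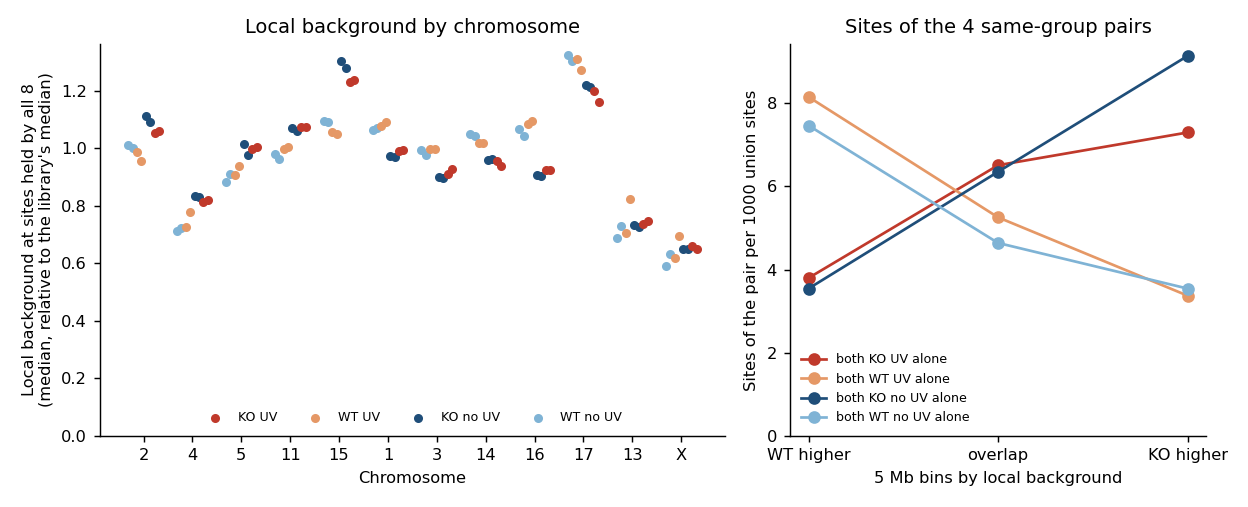
Left, local background at the sites held by all 8 libraries (vertical axis, median relative to the library's own median) on 12 chromosomes, 1 point per library. Right, sites of the 4 same-group pairs per 1000 union sites in 5 Mb bins grouped by whether the background was higher in all WT libraries, overlapped or was higher in all ASH1L-/- libraries. The ASH1L-/- UV pair goes from 3.80 to 7.30 and the WT UV pair from 8.15 to 3.37.

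The surroundings of ASH1L-/- UV sites were measured by the regions of each library within 10 kb that did not overlap the site. In ASH1L-/- UV libraries, 76.3% and 82.1% of the sites had such a neighbour, against 73.2% and 80.6% of all union sites. In WT UV libraries the values were 71.1% and 70.1%, against 72.9% and 70.9%. The log2 ratio of the 2 shares was 0.024 ± 0.026 (SD, n = 4) in ASH1L-/- and -0.032 ± 0.012 (SD, n = 4) in WT libraries, with no overlap. This difference of 0.056 had an exact permutation p of 0.0286, the smallest possible, and 0.0571 after adjustment over the 2 contrasts, which does not pass 0.05. UV and unchallenged libraries differed by 0.024 (exact permutation p = 0.4). The regions of 2 of the 4 ASH1L-/- libraries also chose the sites, and in percentage points, not divided by the share of all union sites, the genotype difference had an exact permutation p of 0.143.

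Genes of the responses that UV light sets off were not crowded with ASH1L-/- UV sites. Of 19970 protein-coding genes, 1882 (9.42%) held or lay within 10 kb of such a site, and these were longer, with a median length of 87.4 kb against 24.9 kb for the others. Of 170 genes in 10 lists of DNA repair, stress response and histone methylation, 11 (6.47%) did, which is near that background. None of 8 genes of damage recognition in global-genome repair did, none of 25 of TFIIH, excision and gap filling and none of 18 chromatin remodelers. Among 7 genes of transcription-coupled repair, ERCC8, which encodes CSA, had a site 5422 bp from its nearest TSS, with fold enrichments of 3.19 and 3.15. Among 18 genes of translesion synthesis and checkpoint, the polymerase gene REV1 had a site with 2.87 and 2.10, 841 bp from its nearest TSS. The fork protection gene TIMELESS had an intronic site with 2.07 and 2.37.

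Of 25 AP-1 and immediate-early genes, the nuclear receptor gene NR4A3 had an exonic site with fold enrichments of 4.35 and 5.51, the highest in these lists, and BATF, an AP-1 family member, had one 2008 bp from its TSS with 2.64 and 2.42. Of 19 NF-kB and inflammatory genes, ICAM1, an adhesion molecule gene, had 2 sites, the stronger with 3.31 and 4.59, and RELB, an NF-kB subunit gene, had one in its flank, in the promoter of CLPTM1, with 2.71 and 2.12. Of 14 genes of the integrated stress response and 20 p53 target genes, DDIT3, which encodes CHOP, had a site in its flank, in the promoter of MARS1, with 3.19 and 2.11 and SESN2, which is in both lists, one with 2.10 and 2.62. Of 18 histone H3 lysine 4 and 36 methyltransferases and their partners, NSD1 had a site with 2.90 and 2.10 and MORF4L1, which encodes the ASH1L partner MRG15, one in its flank with 2.66 and 3.44. The bins of NSD1 and MORF4L1 had a higher background in all 4 ASH1L-/- libraries, with 1.17 to 1.196 against 0.858 to 0.897 and 1.46 to 1.498 against 1.17 to 1.27.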

How the data were processed

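ATAC-seq peak lists of 8 U2OS libraries were used, 2 per group, with groups and replicate numbers from the sample titles. According to the study's methods and the submitters' processing notes, DNA of dead cells was digested before harvest, adapters were trimmed with cutadapt 1.9.1, paired reads were aligned with Bowtie2 2.4.5 to hg38 without chromosome Y and filtered with SAMtools 1.7, bedtools 2.29.2 and Picard, and peaks were called per library with MACS2 2.2.7.1. The deposited lists give a fold enrichment (a ratio within the library), a -log10 p-value, a -log10 q-value and a score, which the authors' caller derived from the p-value. The deposited values are not normalised between libraries. The methods name default settings of the caller, while p-values in the lists go up to 0.01.

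Records with the same interval were taken as 1 region, placed by the summit of highest fold enrichment. Pileup and background were solved from fold enrichment and p-value (97.6% to 99.9% of regions per list), a calculation tested on simulated data. Genes came from GENCODE release 44 on hg38. Motifs were counted in 200 bp windows. Local background was compared in bins of 5 Mb with at least 20 sites held by all 8 libraries. Tests were two-sided exact permutations over 70 assignments of libraries, since no test over sites was made. Python 3.11.15, pandas 2.3.3 and scipy 1.17.1 were used.

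The sites, motifs and gene lists were chosen with earlier results of these data known. Named were the 12 sites and 6 promoter sites with the highest lower percentile of fold enrichment, and up to 3 genes per list with a site. The sites with CRE and NF-kB letters, the 8-letter words, the single-library sites and the 5 Mb bins were added after the data were seen. Some marker genes and sequences are not reported here. Regions were compared with q below 0.05, q of 0.01 or below, equal list lengths, other overlap rules and single libraries left out.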

Additional observations from a re-analysis of the deposited data

How the results depend on the processing

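With regions of q below 0.05, of q of 0.01 or below, or with the same number of regions per list, the ASH1L-/- UV pair rose from rank 6 to rank 3 among the 28 pairs, with 3078, 2438 and 2834 sites. The other settings left it at rank 4 to 8. Of the 3409 sites, 2288 were found again with q below 0.05 and 1282 with q of 0.01 or below. Leaving out 1 library gave 3707 to 44409 sites, the highest values when an ASH1L-/- UV library was left out and 1 region sufficed (44409 and 27298), and 5909 without WT UV replicate 2. The position of sites depended on the annotation: with a promoter of 2 kb, promoters held 11.03% of the sites and gene bodies 37.0%, and with all annotated genes promoters held 11.8%, gene bodies 53.6% and intergenic sequence 34.7%.

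For neighbours within 10 kb, the genotype difference kept its direction in all alternatives run. The UV difference turned to -2.99 percentage points when shares were not divided by those of all union sites (exact permutation p = 0.429). The cause was not tested. Same-numbered libraries deviated together only weakly (correlations of -0.034 to 0.109). With 2 libraries per group this cannot show whether they were prepared together, which the labels do not say. With the replicate block the values were the same, 0.056 for genotype (exact permutation p = 0.0556, the smallest possible) and 0.024 for UV (p = 0.444), and leaving out 1 library gave 0.047 to 0.064 and 0.016 to 0.033. For single-library sites, leaving out 1 library gave differences of 0.247 to 0.294 percentage points for CAATCAGC, 0.0302 to 0.0753 for GCGTAGGA, -0.0990 to -0.0768 for NF-kB letters and 1.44 to 3.77 for AP-1 letters. With the replicate block these 4 had an exact permutation p of 0.0556. In windows of 100 bp the same 4 differences kept their direction, as 0.158, 0.0419, -0.0347 and 0.669. In bins of overlapping background the NF-kB difference was -0.0815 (exact permutation p = 0.0571). Chosen after seeing the data were all alternatives for single-library sites and bins.

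The lists carry no read counts. Intervals cover counting error only.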

Other observations

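Sites held by a single library shared a run of 30 bases with another site's window in 26.8% to 29.2% of cases in 7 libraries and in 18.7% in WT UV replicate 2, the library of highest fold enrichment. The share of all regions of a list that lay on a given chromosome separated the 4 ASH1L-/- from the 4 WT libraries on 13 of 23 chromosomes, 6 with a higher and 7 with a lower share in ASH1L-/-. On chromosome 4 it was 5.22% to 5.85% against 4.20% to 4.54%, and on chromosome 16 it was 2.402% to 2.89% against 3.21% to 3.36% (exact permutation p = 0.0286 each, adjusted over 23 chromosomes p = 0.0505). Inside protein-coding genes, PTPRN2, RORA and TRAPPC9 held the most ASH1L-/- UV sites, 5 each, and are between 731 and 1049 kb long.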
